A study of Homo sapiens with 12 samples.

Results

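The transcripts of the ERBB receptor tyrosine kinases and of a pair of their regulators were followed in CAMA-1 cells treated with a CDK4/6 inhibitor, an anti-oestrogen or both. The set was chosen by gene name, with earlier results of these data known. It holds 6 genes of the 60612 named rows of the count table: the receptors EGFR, ERBB2, ERBB3 and ERBB4, the adaptor GRB7 and the feedback inhibitor ERRFI1. Of these 6 genes, 5 had reads and 5 passed the filter on low counts, and EGFR had no read in any library.

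CAMA-1 is an established line of ER-positive breast cancer cells, and every library came from the same wild-type line, so the values describe 1 line. Cells were grown in medium with 10% serum and received vehicle (DMSO), abemaciclib at 100 nM, fulvestrant at 5 nM, or abemaciclib and fulvestrant together (the combination, whose doses the labels do not restate). Abemaciclib blocks the kinases CDK4 and CDK6, which leaves the retinoblastoma protein active, and fulvestrant binds ER and leads to its degradation. RNA was profiled after 5 days of treatment by 3′ RNA-seq, with 3 biological replicates in each of the 4 groups.

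The ERBB receptors sit in the plasma membrane and bind ligands of the epidermal growth factor and neuregulin families, after which they pair and phosphorylate each other. ERBB2 has no known ligand and acts as the partner of the other receptors, whereas ERBB3 has little kinase activity of its own and is a strong docking platform for PI3 kinase. In breast cancer ERBB2 is known as HER2, it is amplified in a subset of tumours, often together with its chromosomal neighbour GRB7, and in ER-positive cells active ER is known to hold its transcription down.

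Library totals ranged from 3299119 to 5164667 counts, and all 12 libraries were most alike to another of the same treatment. The luminal identity of the line was visible, since all 8 luminal markers (among them ESR1, GATA3, FOXA1 and KRT8) passed the filter, with a summed level of 6340 to 6650 CPM in DMSO and 7360 to 8380 CPM across the treated groups. Single markers did not all follow the sum. The mean of KRT8 was 267.6 CPM in DMSO, 378.7 in abemaciclib, 273.6 with fulvestrant and 202.6 with both drugs. Endothelial and leukocyte markers summed to at most 0.844 CPM in any library, and 4 of 6 fibroblast markers had no read. The other 2, COL1A1 and COL3A1, passed the filter, and the fibroblast list summed to 17.8 to 21.6 CPM in DMSO, 24.9 to 32 in abemaciclib, 28.4 to 36.8 under fulvestrant and 23.6 to 27.8 under both drugs. Of 6 basal or myoepithelial markers only OXTR and MYLK passed the filter. Their list summed to 13.3 to 20 CPM in DMSO, 63.5 to 95 CPM in abemaciclib, 70.2 to 80.1 CPM with fulvestrant and 82.8 to 86.2 CPM with both drugs, while the defining basal genes KRT5, KRT14 and TP63 stayed below 1 CPM on average in every group. The part of these basal and fibroblast markers in the changes of the members was not tested. In bulk RNA, fewer cells of a type and less RNA per cell cannot be told apart. Exact permutation of 3 libraries against 3 cannot give a p below 0.1, so the tests rest on a model fitted across 11803 genes, and their p-values measure the spread between these biological replicates.

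The promoters of 4 of the 6 genes had an entry in RefSeq (GRCh38.p14), with 2 entries for EGFR, and the table used here held none for ERBB3 or GRB7. Those of ERBB2, ERBB4 and ERRFI1 are shown because these genes were higher in the combination than in DMSO and because ER is a target of one of the drugs. Each runs 5′ to 3′ on the gene's own strand over 300 bases around the start site, and capitals mark the half-site of an oestrogen response element, GGTCA, on either strand. ERBB2 lies at chr17:39687844-39688143 (plus strand), ERBB4 at chr2:212538753-212539052 (minus strand) and ERRFI1 at chr1:8026260-8026559 (minus strand).
ERBB2: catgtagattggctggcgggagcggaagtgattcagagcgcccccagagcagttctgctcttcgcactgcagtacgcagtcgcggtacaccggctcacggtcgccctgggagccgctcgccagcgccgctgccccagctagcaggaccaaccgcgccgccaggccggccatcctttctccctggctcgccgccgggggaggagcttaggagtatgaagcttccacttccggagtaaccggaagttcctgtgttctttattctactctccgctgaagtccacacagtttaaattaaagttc
ERBB4: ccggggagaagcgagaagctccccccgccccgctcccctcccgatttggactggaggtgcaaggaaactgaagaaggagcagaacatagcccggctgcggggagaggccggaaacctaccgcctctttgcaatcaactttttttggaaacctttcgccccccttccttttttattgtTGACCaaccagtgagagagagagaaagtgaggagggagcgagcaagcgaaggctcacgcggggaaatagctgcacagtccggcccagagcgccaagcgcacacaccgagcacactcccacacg
ERRFI1: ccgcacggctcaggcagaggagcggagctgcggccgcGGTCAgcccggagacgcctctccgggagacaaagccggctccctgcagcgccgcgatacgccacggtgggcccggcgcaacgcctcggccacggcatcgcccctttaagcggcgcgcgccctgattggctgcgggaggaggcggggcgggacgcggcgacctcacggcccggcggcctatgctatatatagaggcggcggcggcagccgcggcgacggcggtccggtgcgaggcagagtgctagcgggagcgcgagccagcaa

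The ERBB2 window had a GC content of 60.7% and held none of the 6 motifs searched on both strands. It spans the 5′ end of the annotated ERBB2 gene and lies within PGAP3, a gene on the opposite strand. Other start sites of ERBB2 were not searched, so the absence of these motifs holds for this window only. The ERBB4 window (GC content 59%) and the ERRFI1 window (GC content 74.7%) each held 1 half-site and 1 GC box (GGGCGG). Over 35116 RefSeq promoters of the same length, 37.4% held a half-site and 45% a GC box. The full element (GGTCA and TGACC with 3 bases between them), which contains the half-site, was in 0.057% of them, a forkhead motif (GTAAACA) in 3.42%, an AP-2 motif (GCCNNNGGC) in 23.2% and an E2F motif (TTTCCCGC) in 1.63%, and none of these was in the 3 windows shown. These letters are a description of the windows only.

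ERBB2 was the member with the largest change, and it was higher after each treatment. The gene (ENSG00000141736) spans chr17:39687914-39730426 on the plus strand of GRCh38. Its level, in CPM (counts scaled to a common library total with TMM factors), was 40.84, 54.75 and 63.89 in the DMSO libraries and 114.1, 125 and 126 in the abemaciclib libraries. It was 260.9, 228.6 and 243.6 CPM with fulvestrant and 288.3, 282.6 and 270.5 CPM with the combination. No library of any group overlapped those of another group, and the levels stepped up from DMSO to abemaciclib to fulvestrant to the combination.

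Group means of ERBB2 were 53.16 ± 11.6 CPM in DMSO, 121.7 ± 6.6 in abemaciclib, 244.4 ± 16.1 with fulvestrant and 280.5 ± 9.13 with both drugs (SD, n = 3). Abemaciclib raised ERBB2 2.26-fold over DMSO, a log2 change of 1.18 ± 0.11 (SE, adjusted p = 1.91e-09, edgeR quasi-likelihood test with Benjamini-Hochberg adjustment over all genes tested, as for every adjusted p given here). Fulvestrant raised it 4.55-fold, by 2.19 ± 0.11 (adjusted p = 3.62e-15), and the combination 5.22-fold, by 2.38 ± 0.11 (adjusted p = 2.95e-16). Fulvestrant alone gave 2.01 times the level of abemaciclib alone (adjusted p = 1.65e-08). Adding abemaciclib to fulvestrant gave a log2 change of 0.20 ± 0.10 that did not pass (adjusted p = 0.431), with a 95% interval of the difference from 3.1e-05 to 0.40, although the 2 groups' libraries did not overlap.

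**Figure D1:**
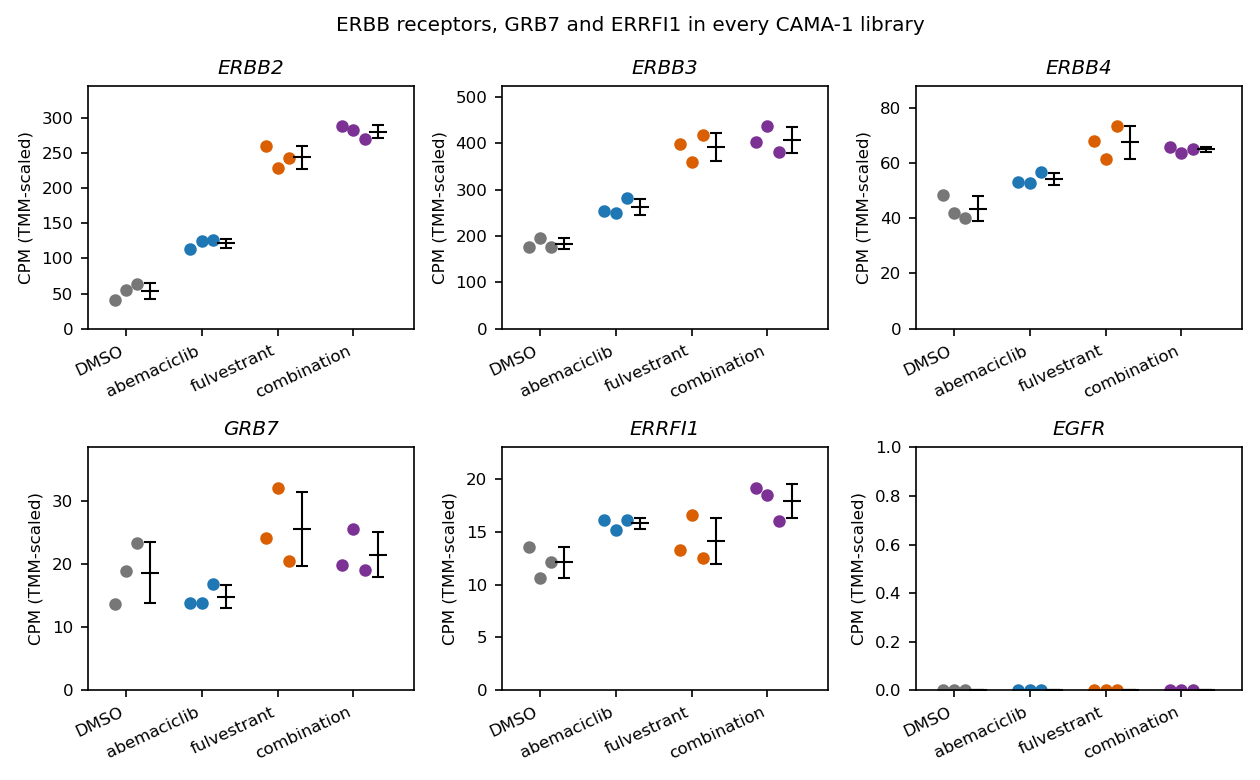
Level of each of the 6 genes in CPM (y axis, linear from 0, one panel per gene) for the 4 treatment groups (x axis). Coloured points are single libraries, and black bars are the mean and SD of 3 libraries. ERBB2 runs from 40.84 CPM in the lowest DMSO library to 288.3 CPM in the highest combination library, and EGFR is at 0 in all 12.

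The 3′ end of ERBB2 overlaps another gene. MIEN1 lies on the opposite strand and shares 571 exonic bases with ERBB2, and the last 500 bases of ERBB2 lie within it. The library kit keeps the strand, but whether reads were counted by strand is not stated in the sources used here, and without it reads of the pair cannot be told apart. MIEN1 had 51.98 ± 3.79 CPM in DMSO, 35.27 ± 1.93 in abemaciclib, 42.33 ± 1.77 with fulvestrant and 44.6 ± 3.51 with both drugs. Its mean was below that of DMSO in each treated group (adjusted p = 0.000241, 0.0289 and 0.0965), and the part of the overlap in either count was not tested.

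ERBB3, the preferred partner of ERBB2 and the receptor that docks PI3 kinase most directly, was also higher after each treatment, by smaller factors. It spans chr12:56076799-56103505 on the plus strand. Libraries held 175.8, 196.4 and 177 CPM in DMSO and 254.3, 249.6 and 282.2 CPM with abemaciclib. They held 399.6, 358.8 and 417.9 CPM with fulvestrant and 402, 436.6 and 382 CPM with the combination. The DMSO, abemaciclib and fulvestrant libraries formed 3 separate ranges, and the fulvestrant and combination libraries overlapped.

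Abemaciclib raised ERBB3 1.43-fold, by 0.52 ± 0.08 on the log2 scale (SE, adjusted p = 1.44e-05). Fulvestrant raised it 2.14-fold, by 1.10 ± 0.08 (adjusted p = 1.1e-11), and the combination 2.22-fold, by 1.15 ± 0.08 (adjusted p = 3.2e-12). The combination was 1.55-fold above abemaciclib alone (adjusted p = 5.71e-07). Against fulvestrant alone its log2 change was 0.05 ± 0.08 (adjusted p = 0.862, 95% interval -0.11 to 0.22).

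ERBB4, a neuregulin receptor with full kinase activity, was also higher after each treatment, over a narrower range. It spans chr2:211375717-212538841 on the minus strand. The DMSO libraries held 48.53, 42.05 and 39.98 CPM and the abemaciclib libraries 53.26, 52.82 and 56.95 CPM. The fulvestrant libraries held 67.99, 61.59 and 73.4 CPM and the combination libraries 65.97, 63.91 and 65.25 CPM. Every treated library lay above every DMSO library, and the fulvestrant range enclosed that of the combination.

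Fulvestrant raised ERBB4 1.57-fold, by 0.65 ± 0.11 on the log2 scale (SE, adjusted p = 9.41e-06), and the combination 1.50-fold, by 0.59 ± 0.10 (adjusted p = 2.74e-05). Abemaciclib gave 1.26-fold, a log2 change of 0.33 ± 0.11 (adjusted p = 0.015). That call was lost without DMSO replicate 2, DMSO replicate 3 or abemaciclib replicate 3, with adjusted p up to 0.0734. The combination exceeded abemaciclib by 0.26 ± 0.10 (adjusted p = 0.0497), and this call was lost under DESeq2 (adjusted p = 0.122) and when any of the 6 libraries compared was left out, where adjusted p ran up to 0.141. Against fulvestrant the log2 change of the combination was -0.06 ± 0.10 (adjusted p = 0.876, 95% interval -0.27 to 0.15).

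EGFR, the receptor of epidermal growth factor, amphiregulin and TGF-alpha, spans chr7:55019017-55211628 on the plus strand. It had 0 counts in all 12 libraries. With 3 counts as the limit that a count of 0 allows, its level was at most 0.222 CPM over the DMSO libraries, 0.222 over abemaciclib, 0.25 over fulvestrant and 0.212 over the combination, for counting error only. EGFR transcript was thus not detectable at this depth in any group, and no fold is given.

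GRB7, an SH2-domain adaptor that binds phosphorylated ERBB2 and ERBB3, passed the test between treatments but not against DMSO. It starts 7500 bases beyond the end of ERBB2, at chr17:39737927-39747291 on the plus strand. Its libraries held 13.61, 18.94 and 23.29 CPM in DMSO, 13.76, 13.87 and 16.88 CPM in abemaciclib, 24.14, 32.06 and 20.45 CPM with fulvestrant and 19.91, 25.56 and 18.97 CPM with both drugs. The DMSO libraries overlapped those of all the other groups, and both groups with fulvestrant lay above abemaciclib alone without overlap. Against DMSO none of the 3 treatments passed the test. The log2 change was -0.36 ± 0.20 with abemaciclib (SE, adjusted p = 0.15, 95% interval -0.77 to 0.05), 0.42 ± 0.19 with fulvestrant (adjusted p = 0.0632, 0.04 to 0.80) and 0.18 ± 0.19 with the combination (adjusted p = 0.425, -0.20 to 0.57). Without DMSO replicate 3, or without fulvestrant replicate 3, the fulvestrant change passed, at 0.62 (adjusted p = 0.0156) and 0.56 (adjusted p = 0.0119), and without DMSO replicate 1 the abemaciclib change did, at -0.51 (adjusted p = 0.044).

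Between treatments GRB7 was 1.72-fold higher with fulvestrant than with abemaciclib, by 0.78 ± 0.19 (SE, adjusted p = 0.00318). It was 1.46-fold higher in the combination than in abemaciclib (0.54 ± 0.19, adjusted p = 0.032), a call lost under DESeq2 (adjusted p = 0.0866) and without abemaciclib replicate 1, abemaciclib replicate 2 or combination replicate 2, with adjusted p up to 0.18. Raw counts of GRB7 were between 46 and 124 per library, against 138 to 1397 for ERBB2.

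ERRFI1 encodes MIG6, which binds the kinase domain of activated ERBB receptors and shuts it off, and which receptor signalling itself induces. It spans chr1:8004404-8026309 on the minus strand. Libraries held 13.61, 10.61 and 12.16 CPM in DMSO, 16.16, 15.19 and 16.13 CPM in abemaciclib, 13.3, 16.59 and 12.5 CPM with fulvestrant and 19.19, 18.55 and 16.07 CPM with both drugs. Both groups with abemaciclib lay above DMSO without overlap, and fulvestrant alone overlapped DMSO. The combination passed the test against DMSO, at 1.49-fold and a log2 change of 0.58 ± 0.17 (SE, adjusted p = 0.00527). Abemaciclib alone gave 0.40 ± 0.17 (adjusted p = 0.0667) and fulvestrant alone 0.23 ± 0.18 (adjusted p = 0.301), neither past the threshold. A long non-coding RNA on the opposite strand shares 155 exonic bases with ERRFI1. Its exons cover the last 500 bases of the ERRFI1 gene span, of which not all are exonic in ERRFI1. The counts of ERRFI1 carry the same limit on strand over the shared bases.

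The order of the group means therefore differed between members. ERBB2 and ERBB3 ran combination, fulvestrant, abemaciclib and DMSO, and ERBB4 ran fulvestrant, combination, abemaciclib and DMSO. In all 3 receptors the combination against fulvestrant did not pass the test after adjustment, though for ERBB2 their libraries did not overlap. Every other pair of neighbours passed it, for ERBB4 with the limits given above. For GRB7 (fulvestrant, combination, DMSO, abemaciclib) and ERRFI1 (combination, abemaciclib, fulvestrant, DMSO), no pair of neighbours in the order passed.

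**Figure D2:**
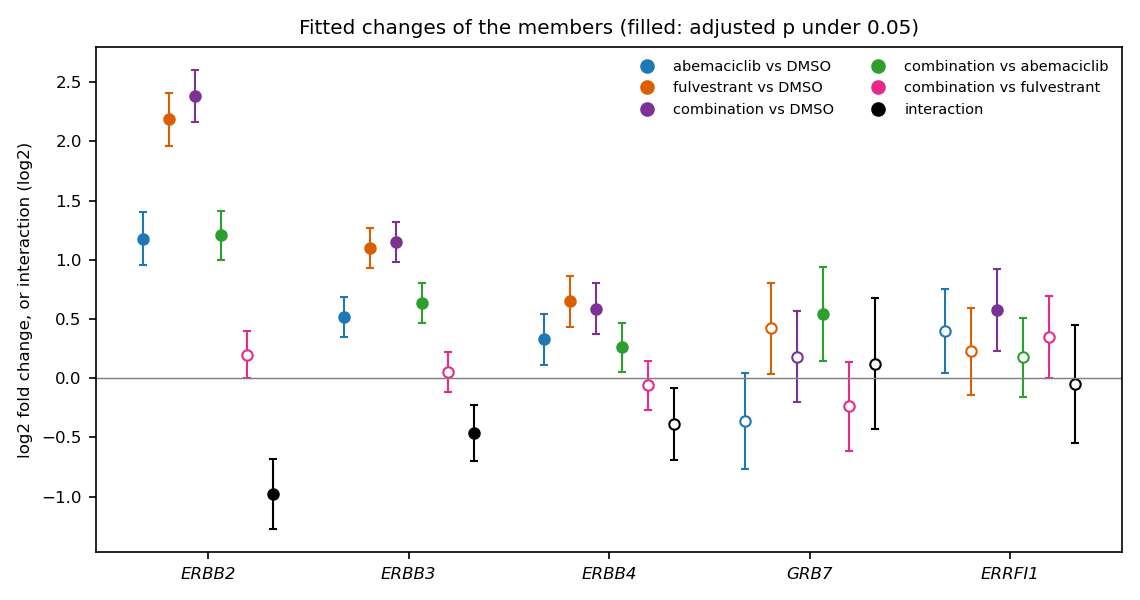
Fitted log2 fold change (y axis) of the 5 genes tested (x axis) in 5 pairwise comparisons and the interaction, with 95% intervals as bars. Filled points passed the adjusted threshold of 0.05. ERBB2 reaches 2.38 in the combination against DMSO, and its interaction lies at -0.98.

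Counted over the 5 members tested, abemaciclib raised 3 (ERBB2, ERBB3 and ERBB4) and lowered 0, where 41.2% of all genes tested passed in either direction and 20.5% were higher. Fulvestrant raised the same 3 receptors and lowered 0, against 51.0% of all genes in either direction and 25.3% higher. The combination raised 4, adding ERRFI1, and lowered 0, against 55.2% in either direction and 27.7% higher. The median log2 change of the 5 members was 0.40, 0.65 and 0.59 in these comparisons, beside medians over all genes of at most 0.01. The members were chosen with earlier results of these data known, so their contrast with all genes is a description only. The 3 comparisons share the DMSO libraries.

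Against abemaciclib alone, the combination was higher for 4 of 5 members (the receptors and GRB7) and lower for 0, where 33.5% of all genes passed and 15.9% were higher. DESeq2, or leaving out abemaciclib replicate 1, abemaciclib replicate 2 or combination replicate 2, gave 2 members, ERBB2 and ERBB3. Fulvestrant against abemaciclib had the same 4 members higher, against 29.0% of all genes and 13.4% higher, and ERBB4 lost its call there without abemaciclib replicate 1, abemaciclib replicate 2 or fulvestrant replicate 3. Combination against fulvestrant was the comparison with the fewest calls. edgeR called 0 of 5 members, against 1.92% of all genes, and DESeq2 also called 0. At an unadjusted p below 0.05 the count was 2, ERBB2 and ERRFI1, the latter with a log2 change of 0.35 ± 0.17 and an adjusted p of 0.427. The share of all genes below that unadjusted p was not counted, here or for the lists below.

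The interaction asked whether the change with abemaciclib differed with and without fulvestrant, on the log2 scale. It passed for 2 of 5 members, both negative, where 21.1% of all genes passed and 11.6% were negative. For ERBB2 it was -0.98 ± 0.15 (SE, adjusted p = 2.04e-05), the change with abemaciclib being 2.26-fold without fulvestrant and 1.15-fold with it. For ERBB3 it was -0.46 ± 0.12 (adjusted p = 0.00493), with 1.43-fold and 1.04-fold. ERBB4 had -0.39 ± 0.15 (adjusted p = 0.0594), which passed without DMSO replicate 1 (adjusted p = 0.0291) or fulvestrant replicate 2 (adjusted p = 0.0344). GRB7 had 0.12 ± 0.27 (adjusted p = 0.791) and ERRFI1 -0.05 ± 0.24 (adjusted p = 0.909).

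On the linear scale the receptors moved the same way, here without a test. Abemaciclib added 68.55 ± 7.71 CPM of ERBB2 (SE) to the DMSO level and 36.11 ± 10.7 CPM to the fulvestrant level, a difference of -32.43 ± 13.2 CPM. For ERBB3 the additions were 78.97 ± 12.2 and 14.79 ± 23.6 CPM, a difference of -64.18 ± 26.6 CPM. For ERRFI1 they were 3.70 ± 0.92 and 3.81 ± 1.57 CPM, close to each other.

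The receptors were thus read in different proportions after treatment. Per 100 reads of ERBB3 there were 29.1 ± 6.51 reads of ERBB2 in DMSO, 46.5 ± 3.09 in abemaciclib, 62.4 ± 3.67 with fulvestrant and 69.1 ± 3.8 with both drugs (SD, n = 3). ERBB2 took 18.9 ± 3.68% of the reads of the receptor family in DMSO and 37.3 ± 1.07% in the combination. Per 100 reads of ERBB2, those of GRB7 went from 34.8 ± 1.57 in DMSO to 12.2 ± 1.16 in abemaciclib, 10.6 ± 3.03 with fulvestrant and 7.65 ± 1.2 with both drugs. These are ratios of reads at the 3′ end and not of proteins.

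ERBB2 and GRB7 are neighbours on chromosome 17, so the genes around them were read as a list of 20, of which 10 were tested. With abemaciclib 3 were higher and 4 lower than in DMSO (median -0.21), with fulvestrant 3 and 3 (median -0.06), and with the combination 4 and 2 (median -0.0047). This is 70%, 60% and 60% of the 10, beside 41.2%, 51.0% and 55.2% of all genes. PGAP3, which remodels GPI anchors and whose gene overlaps the start of ERBB2 on the opposite strand by 144 exonic bases, had 8.02 ± 2.02 CPM in DMSO and 22.05 ± 4.62 CPM in fulvestrant, a log2 change of 1.47 ± 0.20 (SE, adjusted p = 4.68e-07). STARD3, a lysosomal cholesterol transporter just upstream, had 60.44 ± 7.56 CPM in DMSO and 54.55 ± 7.91 CPM in fulvestrant (adjusted p = 0.327). CDK12, a kinase of RNA polymerase II, fell by 0.73 ± 0.09 with fulvestrant (adjusted p = 2.06e-07), and PSMD3, a proteasome subunit, fell by 0.64 ± 0.10 (adjusted p = 1.2e-05). ORMDL3, a regulator of sphingolipid synthesis, rose by 0.58 ± 0.10 (adjusted p = 3.64e-05). MED1 and STARD3 passed in none of the 7 comparisons. In the combination against fulvestrant edgeR called 0 of 10, beside 1.92% of all genes, with 1 at an unadjusted p below 0.05.

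**Figure D3:**
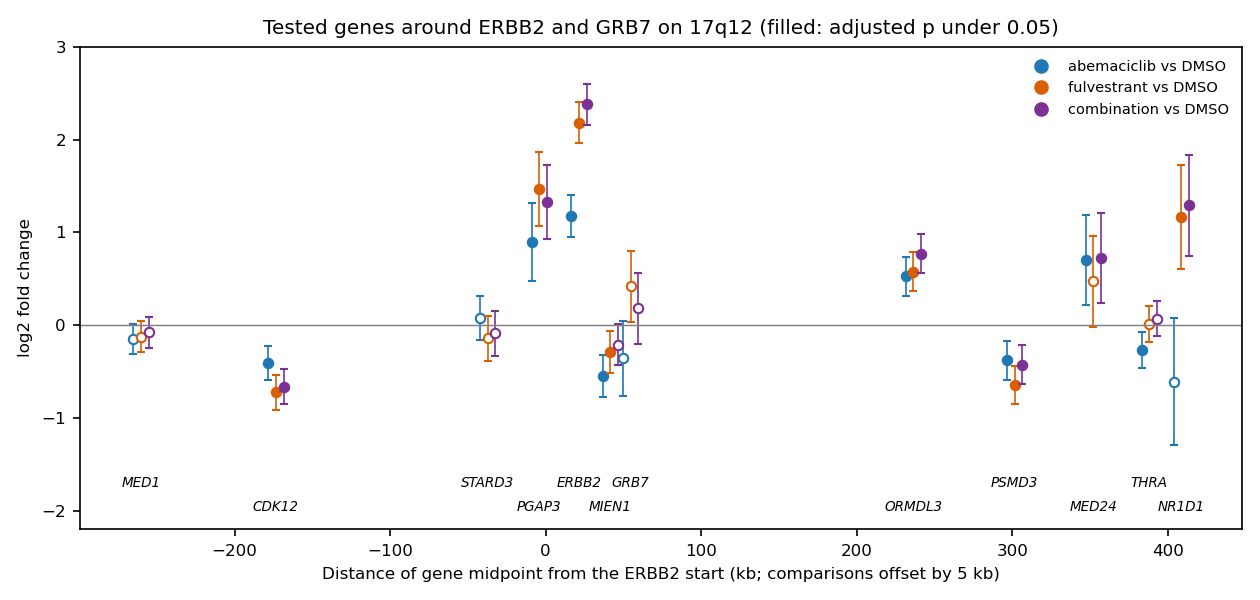
Log2 fold change (y axis, with 95% intervals) of the tested genes around ERBB2 against the distance of each gene's midpoint from the ERBB2 start in kb (x axis), for 3 treatments against DMSO. Filled points passed the adjusted threshold of 0.05. PGAP3 and ERBB2 stand above 0, MIEN1 and CDK12 below it, and GRB7 passed in none of the 3.

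Of 11 ERBB ligands only 4 passed the filter. EGF, EREG and NRG3 had no read, and EPGN, NRG1, NRG2 and NRG4 were too low to test. With abemaciclib all 4 were higher (median log2 change 1.09), with fulvestrant 2 and with the combination 3, beside 20.5%, 25.3% and 27.7% of all genes higher, and none was called lower. AREG, amphiregulin, a ligand of EGFR and a known oestrogen target, had 19.35 ± 1.61 CPM in DMSO, 36.49 ± 3.77 in abemaciclib, 25.07 ± 3.15 with fulvestrant and 26.5 ± 3.88 with both drugs. It rose by 0.92 ± 0.15 with abemaciclib (SE, adjusted p = 1.08e-05) and by 0.38 ± 0.15 with fulvestrant (adjusted p = 0.0406), and the second call was lost under DESeq2 (adjusted p = 0.105) and without DMSO replicate 1, DMSO replicate 2 or fulvestrant replicate 3. The other 3, TGFA, BTC and HBEGF, were near or below 10 CPM and are named after their values were seen. BTC had 1.11 ± 0.26 CPM in DMSO and between 3.03 and 3.08 CPM on average in the treated groups. HBEGF had 5.59 ± 3.36 CPM in DMSO, 10.55 ± 1.06 in abemaciclib, 3.35 ± 0.36 under fulvestrant and 5.40 ± 2.75 under both drugs. Between fulvestrant and abemaciclib its log2 difference was -1.65 ± 0.38 (adjusted p = 0.00231). In the combination against fulvestrant edgeR called 0 of the 4 ligands, beside 1.92% of all genes, with 0 at an unadjusted p below 0.05.

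Of 16 adaptors and proximal signalling genes 14 were tested. With abemaciclib 6 were higher and 1 lower, with fulvestrant 7 and 3, and with the combination 8 and 2, with medians of 0.26, 0.24 and 0.29. This is 50%, 71.4% and 71.4% of the 14, beside 41.2%, 51.0% and 55.2% of all genes. PIK3R1, a regulatory subunit of PI3 kinase that docks on ERBB3, had 28.76 ± 2.8 CPM in DMSO, 75.96 ± 2.51 in abemaciclib, 66.49 ± 2.17 with fulvestrant and 78.84 ± 1.36 with both drugs, and its smallest rise was 1.22 ± 0.10 (fulvestrant, SE, adjusted p = 1.26e-10). PIK3R3, another regulatory subunit, had 82.92 ± 11.3 CPM in DMSO and 195.8 ± 38.1 CPM with fulvestrant, a rise of 1.23 ± 0.14 (adjusted p = 1.53e-06). PTK6, a non-receptor kinase that associates with ERBB receptors, had 17.38 ± 2.56 CPM in DMSO and between 40.93 and 44.88 CPM on average in the treated groups (adjusted p of at most 9.63e-09). SOS2, an exchange factor that activates RAS, followed a graded order like that of ERBB3, with 10.25 ± 0.76, 14.33 ± 1.55, 21.96 ± 1.34 and 23.82 ± 1.36 CPM. GRB2, which links the receptors to SOS proteins, was lower with abemaciclib alone by -0.31 (adjusted p = 0.00262), at 164 ± 10.2 CPM against 202.8 ± 3.92 CPM in DMSO. In the combination against fulvestrant edgeR called 0 of the 14, beside 1.92% of all genes, with 3 at an unadjusted p below 0.05.

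Of 27 genes of receptor turnover and feedback 23 were tested. With abemaciclib 4 were higher and 2 lower, with fulvestrant 6 and 5, and with the combination 5 and 5, with medians of 0.04, -0.02 and 0.19. The shares called, 26.1%, 47.8% and 43.5%, were below those of all genes, 41.2%, 51.0% and 55.2%. HSP90AA1, a chaperone that holds ERBB2 in its mature form, had 4812 ± 161 CPM in DMSO, 3125 ± 92 in abemaciclib, 2291 ± 119 with fulvestrant and 2123 ± 76.5 with both drugs, and it fell by 1.07 ± 0.07 on the log2 scale with fulvestrant (SE, adjusted p = 5.14e-13). Its paralogue HSP90AB1 had 4880 ± 186 CPM in DMSO, 4757 ± 18.6 in abemaciclib and 3259 ± 108 in fulvestrant. The ubiquitin ligases CBL and STUB1, which mark ERBB receptors for degradation, fell with fulvestrant by 0.68 ± 0.14 (adjusted p = 0.000293) and 0.61 ± 0.11 (adjusted p = 2.72e-05). The ligases CBLB and RNF41 of the same list did not follow them. CBLB had 4.73 ± 1.5 CPM in DMSO and 8.03 ± 0.67 CPM in fulvestrant, and RNF41 had 39.17 ± 0.88 and 38.38 ± 3.1 CPM. SPRED2, an inhibitor of the RAS pathway, had 8.89 ± 1.58 CPM in DMSO and 20.38 ± 7.74 CPM in fulvestrant, a rise of 1.15 ± 0.28 (adjusted p = 0.0023). In the combination against fulvestrant edgeR called 0 of the 23, beside 1.92% of all genes, with 0 at an unadjusted p below 0.05.

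Of 16 transcription factors tied to ERBB2 or ERBB3, 13 were tested. With abemaciclib 4 were higher and 2 lower, with fulvestrant 7 and 2, and with the combination 5 and 2, with medians of 0.14, 0.29 and 0.19. The shares called were 46.2%, 69.2% and 53.8%, beside 41.2%, 51.0% and 55.2% of all genes. FOXO3, a forkhead factor restrained by AKT and known to act on ERBB3, had 22.44 ± 0.98 CPM in DMSO, 27.19 ± 4.02 in abemaciclib, 49.6 ± 4.8 with fulvestrant and 47.48 ± 3.01 with both drugs. ELF3, an epithelial ETS factor, had 33.89 ± 1.15, 35.56 ± 3.23, 63.91 ± 7.49 and 62.71 ± 5.07 CPM in the same order. Both passed against DMSO with fulvestrant (adjusted p = 2.61e-08 for FOXO3 and 2.01e-07 for ELF3), and for both abemaciclib alone did not (adjusted p = 0.121 and 0.685). EHF, a related ETS factor, had its highest level with abemaciclib, at 27.58 ± 5.78 CPM against 10.24 ± 2.2 CPM in DMSO (adjusted p = 4.95e-07) and 13.14 ± 0.54 CPM in fulvestrant. YBX1, which binds DNA and RNA, fell by 0.99 ± 0.09 with abemaciclib and by 1.04 ± 0.09 with fulvestrant (adjusted p = 1.06e-09 and 2.08e-10). TFAP2A, an AP-2 factor known to act on the ERBB2 promoter, rose by 0.78 with fulvestrant (adjusted p = 0.00018), from 630.3 ± 69.8 to 1084 ± 168 CPM, whereas the related TFAP2C went from 170.5 ± 8.04 to 142.9 ± 8.94 CPM (adjusted p = 0.00874). The transcript of ESR1, which encodes ER, passed in none of the 3 comparisons with DMSO, with means between 81.26 and 102.4 CPM. In the combination against fulvestrant 0 were higher and 2 were lower, beside 0.297% and 1.63% of all genes. This is 15.4% of the 13, beside 1.92% of all genes in either direction. The 2 were SPDEF (adjusted p = 0.00875, lost without combination replicate 3) and FOXA1 (adjusted p = 0.0428, lost in 7 of 14 alternatives).

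**Figure D4:**
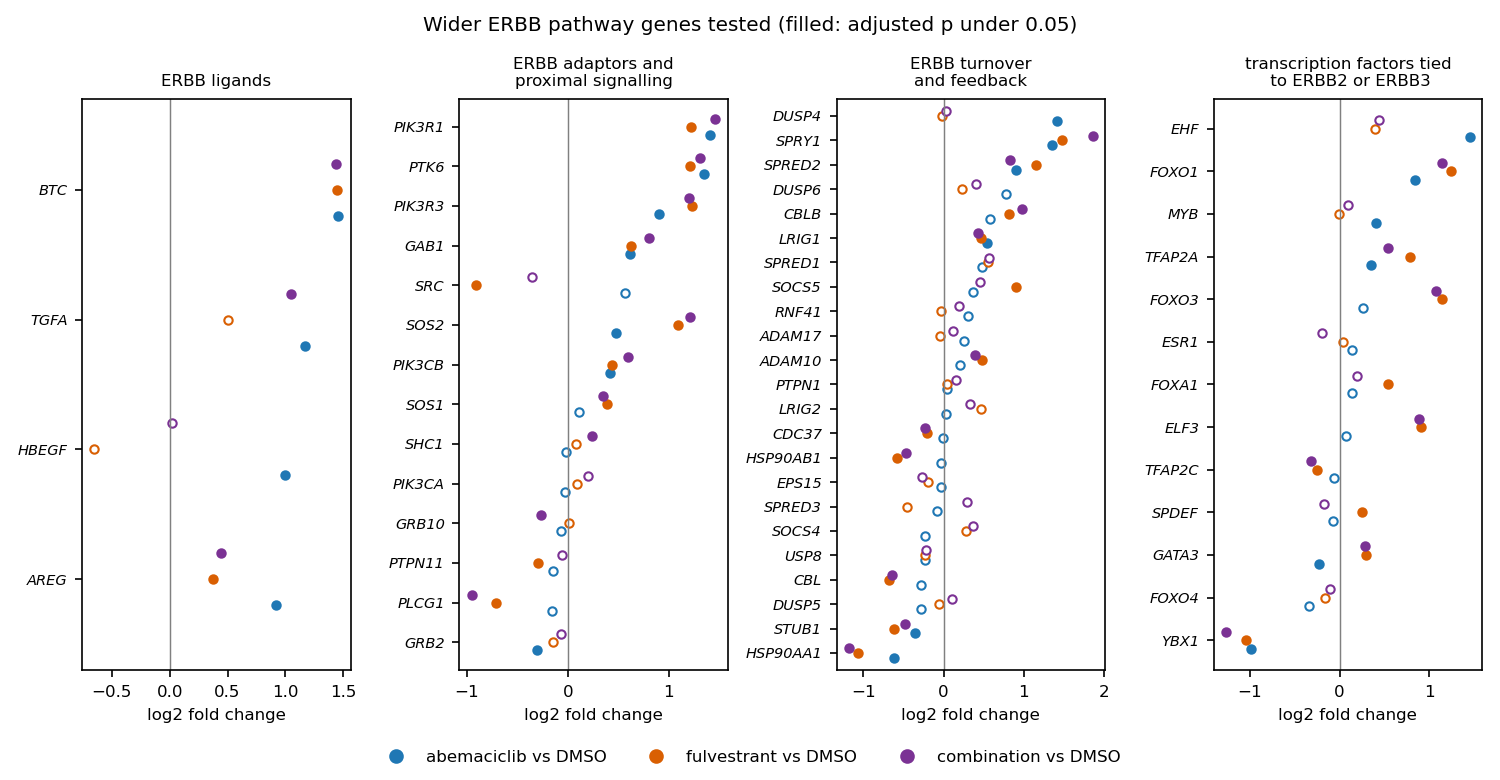
Log2 fold change against DMSO (x axis) of each tested gene of 4 lists (y axis, one panel per list) for abemaciclib, fulvestrant and the combination. Filled points passed the adjusted threshold of 0.05. PIK3R1 and PTK6 lie right of 0 in all 3 treatments, and HSP90AA1 and YBX1 left of it.

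The genes whose levels followed each member most closely were found among 8463 genes with a mean of at least 10 CPM, by the root mean square difference of log2 CPM over the 12 libraries after centring each gene on its own mean. ERBB2 was nearest to TCF7L1 (0.18), LDLRAD4 (0.187) and HLF (0.19), where the median gene was at 0.982. TCF7L1 had 31.64 CPM in DMSO, 67.74 in abemaciclib, 134.9 with fulvestrant and 138.3 with both drugs. ERBB3 was nearest to SOS2 (0.0895), POLR3GL (0.094) and MKNK2 (0.103), and ERBB4 to LRP10 (0.0605) and CLIP1 (0.0634). GRB7 was nearest to CNNM4 (0.168), BCL2L11 (0.178) and CTDSP2 (0.181), and ERRFI1 to BMPR1A (0.108), NDUFV1 (0.12) and CAMKK2 (0.124). These distances rest on 12 libraries that fall into 4 treatment groups, and they are given as a description. Among the members themselves, 5.97% of candidates were nearer to ERBB3 than ERBB4 was, and 94.8% were nearer to GRB7 than ERBB2 was.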

How the data were processed

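3′ RNA-seq libraries of CAMA-1 cells (QuantSeq forward kit, 12 libraries, 4 groups taken from the treatment label) were compared. The file deposited by the authors holds read counts by gene symbol, not normalised. In it 76 symbols stood on more than 1 row, and these rows were kept apart. In the methods of the study, reads were trimmed with BBDuk, aligned to hg38 with STAR and counted with featureCounts on a GENCODE annotation, and the submitters' processing notes give featureCounts 2.0.1. The strand setting is not given in the sources used here, and no molecular identifiers are named, so reads are not independent molecules and limits at 0 counts cover counting error only.

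Of 60656 rows, 44 without a gene name held 0 reads and were left out. The counts were tested with edgeR 4.0.16 in R 4.3.3 (filterByExpr, minimum count 10 and minimum total 15, TMM factors, robust quasi-likelihood fit). Each of the 11803 genes kept was fitted with 4 group means over all 12 libraries, for 6 pairwise comparisons and the interaction, with Benjamini-Hochberg adjustment over all genes at a threshold of 0.05. Replicate pairs of a group differed by more than sampling noise. Positions and overlaps are from GENCODE release 44 on GRCh38, a later release than the one the study counted reads on. Gene ends and overlaps may therefore differ from those used in counting. Promoters are from RefSeq.

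The 6 members and the 5 lists were chosen with earlier results of these data known. The text names all members and, per list and comparison, at most 4 genes with the largest change among those past the threshold whose groups did not overlap and with a mean of at least 10 CPM in some group, and not every gene so selected is given. MED1, STARD3, MIEN1, GRB2, STUB1, PTPN11, HSP90AB1, TFAP2A, TFAP2C, ESR1 and the ligands TGFA, BTC and HBEGF are also given in places where this rule did not select them, chosen after their values were seen. The ubiquitin ligases CBLB and RNF41 were also named in this way. Alternatives were DESeq2 1.42.0 (the study's tool), other scaling factors, filters and fold thresholds, a fit on the groups compared, thinning to the smallest total, a replicate block and leaving out each library. Deviations of same-numbered libraries of different groups had correlations of -0.215 to 0.119 over 18 pairs, of which 2 exceeded 0.1. Those of differently numbered libraries had -0.208 to 0.301 over 36 pairs, of which 4 exceeded 0.1. No pairing by number was thus visible.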

Additional observations from a re-analysis of the deposited data

Results flagged for a closer look

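The change with abemaciclib differed with and without fulvestrant (interaction test on the log2 scale, edgeR quasi-likelihood test with Benjamini-Hochberg adjustment over all genes) for 20 of the 69 members and list genes tested, beside 21.1% of all genes. Among the receptors the interaction was -0.98 for ERBB2 (adjusted p = 2.04e-05) and -0.46 for ERBB3 (adjusted p = 0.00493). The ligand AREG had -0.85 (adjusted p = 0.00383).

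Among adaptors and proximal signalling genes, PTK6 had -1.26 (adjusted p = 5.83e-06), PIK3R1 -1.17 (adjusted p = 6.51e-07), PIK3R3 -0.93 (adjusted p = 0.00233), GRB2 0.38 (adjusted p = 0.0133) and PTPN11 0.38 (adjusted p = 0.0401). The call of GRB2 was lost without abemaciclib replicate 3 (adjusted p = 0.0521).

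Among turnover and feedback genes, SPRED2 had -1.23 (adjusted p = 0.0287), HSP90AA1 0.51 (adjusted p = 0.000354) and STUB1 0.49 (adjusted p = 0.0223). SPRED2 lost its call in 8 of 19 alternatives and STUB1 in 5 of 19, each time with 1 library left out.

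Among the neighbours of ERBB2, PGAP3 had -1.03 (adjusted p = 0.0064), MIEN1 0.63 (adjusted p = 0.00475), PSMD3 0.60 (adjusted p = 0.00397) and CDK12 0.47 (adjusted p = 0.011). Among the transcription factors, EHF had -1.41 (adjusted p = 0.000475), YBX1 0.76 (adjusted p = 0.000101), TFAP2A -0.60 (adjusted p = 0.032), FOXA1 -0.48 (adjusted p = 0.00818) and ESR1 -0.37 (adjusted p = 0.0433). TFAP2A lost its call in 6 of 19 alternatives. The calls of ESR1 and PTPN11 were not put through the alternatives.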

How the results depend on the processing

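The calls of ERBB2 and ERBB3 against DMSO, against abemaciclib and in the interaction held under every alternative run other than the 2-fold requirement, as did ERRFI1 in the combination against DMSO and GRB7 in fulvestrant against abemaciclib. Over all members, comparisons and alternatives, 475 values kept their direction and side of the threshold, 23 fell below it, 7 rose past it and 10 changed sign, all of the last uncalled values near 0. The cause was not tested. For ERBB4 in the combination against abemaciclib (0.26) the call was lost with DESeq2 (0.25), median-of-ratios factors (0.25), no filter (0.25), at least 10 counts in every library (0.25), the replicate block (0.2607) and thinning (0.2188). The replicate block changed no other call of a member. GRB7 in the combination against abemaciclib lost its call with DESeq2 (0.53) and thinning (0.53), which left 2 members there. GRB7 in fulvestrant against DMSO passed with no filter (0.42) and thinning (0.48). Thinning turned the ERRFI1 interaction to 0.0488. Requiring at least 2-fold left 1 member in abemaciclib against DMSO, 2 in the combination against DMSO, 1 in the combination against abemaciclib, 1 in fulvestrant against abemaciclib and 0 in the interaction.

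With 1 library left out at a time, log2 values ran as follows where a call or sign changed. ERBB4 ran from 0.28 to 0.40 in abemaciclib against DMSO, from 0.24 to 0.29 in the combination against abemaciclib, from 0.26 to 0.38 in fulvestrant against abemaciclib, from -0.12 to 0.0034 in the combination against fulvestrant and from -0.47 to -0.33 in the interaction. GRB7 ran from -0.51 to -0.16 in abemaciclib against DMSO, from 0.23 to 0.62 in fulvestrant against DMSO, from 0.39 to 0.63 in the combination against abemaciclib and from -0.08 to 0.31 in the interaction, where it was negative without DMSO replicate 3 (-0.0786), fulvestrant replicate 3 (-0.0167) or combination replicate 2 (-0.0361). ERBB3 in the combination against fulvestrant ran from -0.0071 to 0.10, and was -0.0069 without fulvestrant replicate 2. The ERRFI1 interaction ran from -0.14 to 0.0704 (without fulvestrant replicate 2), and was 0.0393 without DMSO replicate 2 and 0.0147 without combination replicate 3. Members called in the combination against abemaciclib numbered 2 to 3. Of 100 results of named list genes, 70 kept their call in every alternative. GRB7 and ERRFI1 had the fewest counts among the members tested (from 46 per library), which widens their intervals, and EGFR could not be tested.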

Other observations

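Several list genes below 10 CPM also passed the test and are given after their values were seen. SPRY1, an inhibitor of RAS signalling downstream of receptor kinases, had 2.35 ± 0.65 CPM in DMSO, 6.10 ± 1.14 in abemaciclib, 6.57 ± 2.35 with fulvestrant and 8.62 ± 0.69 with both drugs (SD, n = 3), with an adjusted p of 0.00171, 0.000496 and 1.21e-05 against DMSO (edgeR quasi-likelihood test). CBLB, a ubiquitin ligase related to CBL, had 4.73 ± 1.5 CPM in DMSO and 8.98 ± 0.72 in the combination (adjusted p = 0.00215), while CBL itself was lower there, at 29.52 ± 3.67 CPM against 45.71 ± 7.96 (adjusted p = 0.000378). DUSP4, a phosphatase of MAP kinases, had 3.22 ± 0.51 CPM in abemaciclib and between 1.16 and 1.23 CPM on average in the other 3 groups (adjusted p = 0.0173 for abemaciclib against DMSO). PLCG1, phospholipase C gamma, went from 7.66 ± 1.78 CPM in DMSO to 4.05 ± 0.45 in the combination (adjusted p = 0.00287). SRC, a kinase that acts with ERBB receptors, had 7.40 ± 2.42 CPM in abemaciclib and 2.66 ± 0.26 in fulvestrant (adjusted p = 0.000953).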
